A study of Mus musculus with 18 samples.

Results

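The 44 genes described here encode the machinery of cell division: the proteins that license and fire replication origins, the enzymes that make DNA precursors, the cyclins and cyclin-dependent kinases (CDKs), the mitotic kinases and motors, and a few transcription factors and checkpoint kinases that act on them. They were found by matching gene symbols in the annotation of an Affymetrix mouse expression array, updated to RefSeq symbols by Entrez gene ID. Each gene is represented by the probe set with the highest mean over all 18 arrays, and all 44 of 44 were found among the 20672 genes measured. The array values are log2 signals, so a difference of 1 is a 2-fold change in signal, and 43 of the 44 genes had a mean above 6.71, the median of all genes. Ccnb1 was the exception.

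The arrays cover 3 groups of mice. The IDH2/NHD13 group held leukemic spleens of 9 mice carrying a mutant isocitrate dehydrogenase, Idh2R140Q, together with NHD13, the NUP98-HOXD13 fusion, and their T-cell acute lymphoblastic leukemia (T-ALL) is labelled DN1/DN2 after the earliest thymocyte stages. The SCL/LMO1 group held leukemic thymi of 6 mice with SCL and LMO1, whose T-ALL is labelled cortical and carries CD4 and CD8. Thymi of 3 wild-type (WT) mice were the normal tissue. The mice's ages and the promoters driving the transgenes are not given in the sources used here. The arrays of IDH2/NHD13 mice 546 and 550 were near-identical (root mean square difference 0.213 on the log2 scale across probe sets, against 0.45 or more for all other pairs). They were averaged and counted as 1 sample, leaving 8 IDH2/NHD13, 6 SCL/LMO1 and 3 WT samples. IDH2/NHD13 leukemia was sampled from spleen and both other groups from thymus, so tissue and genotype cannot be told apart in the comparisons with IDH2/NHD13.

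The labels were checked against marker genes. Kit, a receptor of early progenitors, averaged 10.01 ± 0.50 in IDH2/NHD13 spleens, 6.44 ± 1.06 in SCL/LMO1 thymi and 7.11 ± 0.08 in WT thymi (SD; n = 8, 6 and 3). The 8 early progenitor genes as a list did not move one way: 3 were higher and 2 lower in IDH2/NHD13 than in WT, 0 higher and 2 lower in SCL/LMO1 than in WT, and 3 higher and 1 lower in IDH2/NHD13 than in SCL/LMO1. Cd8b1, a chain of CD8, averaged 4.66 ± 0.51, 10.84 ± 0.83 and 12.87 ± 0.37 in the same order, and Cd3d, a chain of the T-cell receptor complex, 7.29 ± 0.94, 13.39 ± 0.18 and 13.01 ± 0.43. Of 10 T-lineage genes, 3 were called lower in IDH2/NHD13 than in WT, and all 10 differences were negative. Against SCL/LMO1, 9 were called lower. Their mean was 6.83 to 10.12 in IDH2/NHD13 spleens, 11.23 or above in WT thymi and 11.98 or above in SCL/LMO1 thymi. Of 10 genes of double-positive (CD4 and CD8) thymocytes, 9 were lower in IDH2/NHD13 than in WT and 9 than in SCL/LMO1. In SCL/LMO1 against WT, 1 T-lineage gene was higher and 1 double-positive gene lower. Markers of another dividing cell type also moved with the spleen group. All 12 of 12 erythroid precursor genes were higher in IDH2/NHD13 spleens than in WT thymi, and their mean log2 signal lay between 9.65 and 12.89 in IDH2/NHD13 spleens, between 5.90 and 6.35 in SCL/LMO1 thymi and between 5.91 and 6.27 in WT thymi. Klf1, the master transcription factor of red cell precursors, averaged 11.76 ± 1.54, 5.13 ± 0.27 and 5.06 ± 0.22 in the same order. Of 9 neutrophil precursor genes, 8 were higher in IDH2/NHD13 spleens than in WT thymi, and their mean per sample ranged from 6.64 to 12.54 in IDH2/NHD13 spleens, from 5.60 to 9.71 in SCL/LMO1 thymi and from 5.67 to 6.57 in WT thymi. In SCL/LMO1 the highest were mice 7114/3 and 7114/1 (9.71 and 8.98), and 0 of the 9 genes were called against WT (limma; 0 at a nominal p under 0.05), with all 9 differences positive. Of 7 thymic epithelium genes, 6 were lower in IDH2/NHD13 and 5 in SCL/LMO1 than in WT. Their mean lay between 5.58 and 6.16 in IDH2/NHD13 spleens, between 5.30 and 9.06 in SCL/LMO1 thymi and between 9.31 and 10.06 in WT thymi. The 9.06 was that of SCL/LMO1 mouse 3767, near the WT values, and the other SCL/LMO1 thymi lay between 5.30 and 6.01. The part of these cells in the results below cannot be told apart from that of genotype and tissue. In whole tissue, fewer cells of a type and less RNA per cell cannot be told apart.

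A cell prepares to divide in G1, when D-type cyclins with Cdk4 or Cdk6 phosphorylate the retinoblastoma protein and release E2F transcription factors. E2F then drives cyclin E and the replication genes, origins are licensed by loading the MCM helicase with the help of the origin recognition complex, Cdc6 and Cdt1, and Cdc45 and GINS turn the loaded helicase on. The mitotic genes are switched on later, through Foxm1 and MuvB complexes that act at CHR elements and nearby CCAAT boxes. Thymocytes divide in bursts at set stages, and which D-type cyclin they use changes with the stage.

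Promoter sequences are shown here for some of the genes called below (Mcm6, Orc1, Cdk2, Cdk4 and Cdk6). Those of the mitosis genes Mki67 and Top2a, which were not called, are shown beside them. Of the 44 genes, 35 matched a promoter in the RefSeq table for GRCm38.p6, with 250 bases before and 50 after the start. The genes not matched were Ccnd1, Gins1, Aurkb, Ccne2, Mcm4, Gins2, Ccna2, Ccnd2 and Foxm1. The windows printed run from 150 bases before to 30 after the start, 180 bases each, 5′ to 3′. They cover Mcm6 at chr1:128359676-128359855 (minus strand), Orc1 at chr4:108579304-108579483 (plus strand), Cdk2 at chr10:128705022-128705201 (minus strand), Mki67 at chr7:135716350-135716529 (minus strand), Top2a at chr11:99024160-99024339 (minus strand), Cdk4 at chr10:127063385-127063564 (plus strand) and Cdk6 at chr5:3343743-3343922 (plus strand). Capitals mark E2F-type sequences in Mcm6, Orc1 and Cdk2, and CHR and CCAAT sequences in Mki67 and Top2a. CCAAT sequences also stand in the windows of Mcm6, Orc1 and Cdk2 and are not marked there. The windows of Cdk4 and Cdk6 hold no E2F-type, CHR or CCAAT sequences and have no capitals.
Mcm6: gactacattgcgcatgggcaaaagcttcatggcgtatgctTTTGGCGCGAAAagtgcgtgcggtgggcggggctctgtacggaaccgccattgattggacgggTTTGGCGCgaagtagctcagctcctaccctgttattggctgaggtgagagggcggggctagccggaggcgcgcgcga
Orc1: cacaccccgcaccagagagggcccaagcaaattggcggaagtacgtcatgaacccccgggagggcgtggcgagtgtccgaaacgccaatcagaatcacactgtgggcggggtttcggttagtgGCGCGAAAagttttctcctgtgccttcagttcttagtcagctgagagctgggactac
Cdk2: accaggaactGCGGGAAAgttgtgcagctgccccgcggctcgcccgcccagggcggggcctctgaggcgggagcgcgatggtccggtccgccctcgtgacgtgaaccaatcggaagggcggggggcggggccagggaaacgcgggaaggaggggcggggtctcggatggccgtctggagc
Mki67: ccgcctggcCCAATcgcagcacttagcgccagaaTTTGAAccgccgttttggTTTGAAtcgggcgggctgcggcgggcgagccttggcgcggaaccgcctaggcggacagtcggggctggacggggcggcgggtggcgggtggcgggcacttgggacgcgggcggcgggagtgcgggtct
Top2a: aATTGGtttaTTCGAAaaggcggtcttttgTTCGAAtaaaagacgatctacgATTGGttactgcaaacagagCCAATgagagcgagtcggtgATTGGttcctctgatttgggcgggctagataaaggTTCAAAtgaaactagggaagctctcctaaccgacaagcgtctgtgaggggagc
Cdk4: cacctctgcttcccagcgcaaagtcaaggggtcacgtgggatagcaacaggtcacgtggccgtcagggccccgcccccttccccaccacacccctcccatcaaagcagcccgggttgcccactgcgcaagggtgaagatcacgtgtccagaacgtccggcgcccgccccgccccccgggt
Cdk6: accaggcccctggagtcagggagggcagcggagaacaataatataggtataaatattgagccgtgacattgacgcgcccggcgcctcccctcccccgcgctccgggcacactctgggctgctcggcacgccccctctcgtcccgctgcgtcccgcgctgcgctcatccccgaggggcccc

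The E2F search used the letters TTTGGCGC, TTTCGCGC, TTTCCCGC and TTTGCCGC on both strands, and the first of the 3 Mcm6 matches overlaps the next. At least 1 of these 8-letter sequences stood in 7 of 11 licensing and origin firing promoters (63.6%), in 0 of 4 nucleotide supply promoters, in 2 of 8 cyclin and CDK promoters (Cdk1 and Cdk2) and in 0 of 9 promoters of mitosis genes, against 2.6% of all 27025 promoters. Licensing, origin firing and nucleotide supply together had 7 of 15 (46.7%). CHR letters (TTTGAA or TTCGAA) stood in 8 of 9 mitosis promoters (88.9%) and in 3 of 11 licensing and 0 of 4 nucleotide supply promoters, against 21.7% of all. The CCAAT letters stood in 8 of 9 and 9 of 11, against 41.1% of all. CHR and CCAAT together stood in 8 of 9 mitosis promoters and 8.61% of all promoters. A gene with several annotated starts was counted once, if any start had the letters. A match of letters is a description and not a binding site.

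Against WT thymi, 5 of the 44 genes changed in IDH2/NHD13 spleens (limma, adjusted p under 0.05 over all genes), 4 higher and 1 lower, against 17.4% of all genes called (9.08% higher and 8.31% lower). Against the same WT thymi, 5 changed in SCL/LMO1 thymi, also 4 higher and 1 lower, against 11.6% of all genes (5.04% higher and 6.52% lower). Between the leukemias 7 changed, 2 higher and 5 lower in IDH2/NHD13, against 23.7% of all genes (11.7% higher and 12% lower). With all samples, the share of the 44 called, counting both directions, was 11.4%, 11.4% and 15.9% in the same order of comparisons, below that of all genes in each. It stood above that of all genes in 5 of 30 alternatives for IDH2/NHD13 against WT, in 22 of 30 for SCL/LMO1 against WT and in 1 of 30 between the leukemias. Of the 44, 9.09% were called higher in SCL/LMO1 than in WT against 5.04% of all. Without mice 555, 627 and 6889/1, an alternative chosen with earlier results known, the counts were 1, 2 and 5 (all genes 14.5%, 5.13% and 23.6%). Both comparisons with WT share the 3 WT samples. The genes stood mostly above WT in both leukemias without passing the test: 39 of 44 differences were positive in each (88.6%, against 62.1% and 61.5% of all genes), with a median log2 difference of 0.38 for IDH2/NHD13 and 0.51 for SCL/LMO1, against 0.10 and 0.08 over all genes. Between the leukemias the median was -0.03 (all genes 0.03). The 44 genes do not count as separate observations: WT mouse 631 was the highest WT thymus for 41 of them. Its mean over the 44 genes, 10.67, lay within the range of both leukemias. The means of WT mice 623 and 627, 10.01 and 9.74, lay below every SCL/LMO1 thymus.

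**Figure D1:**
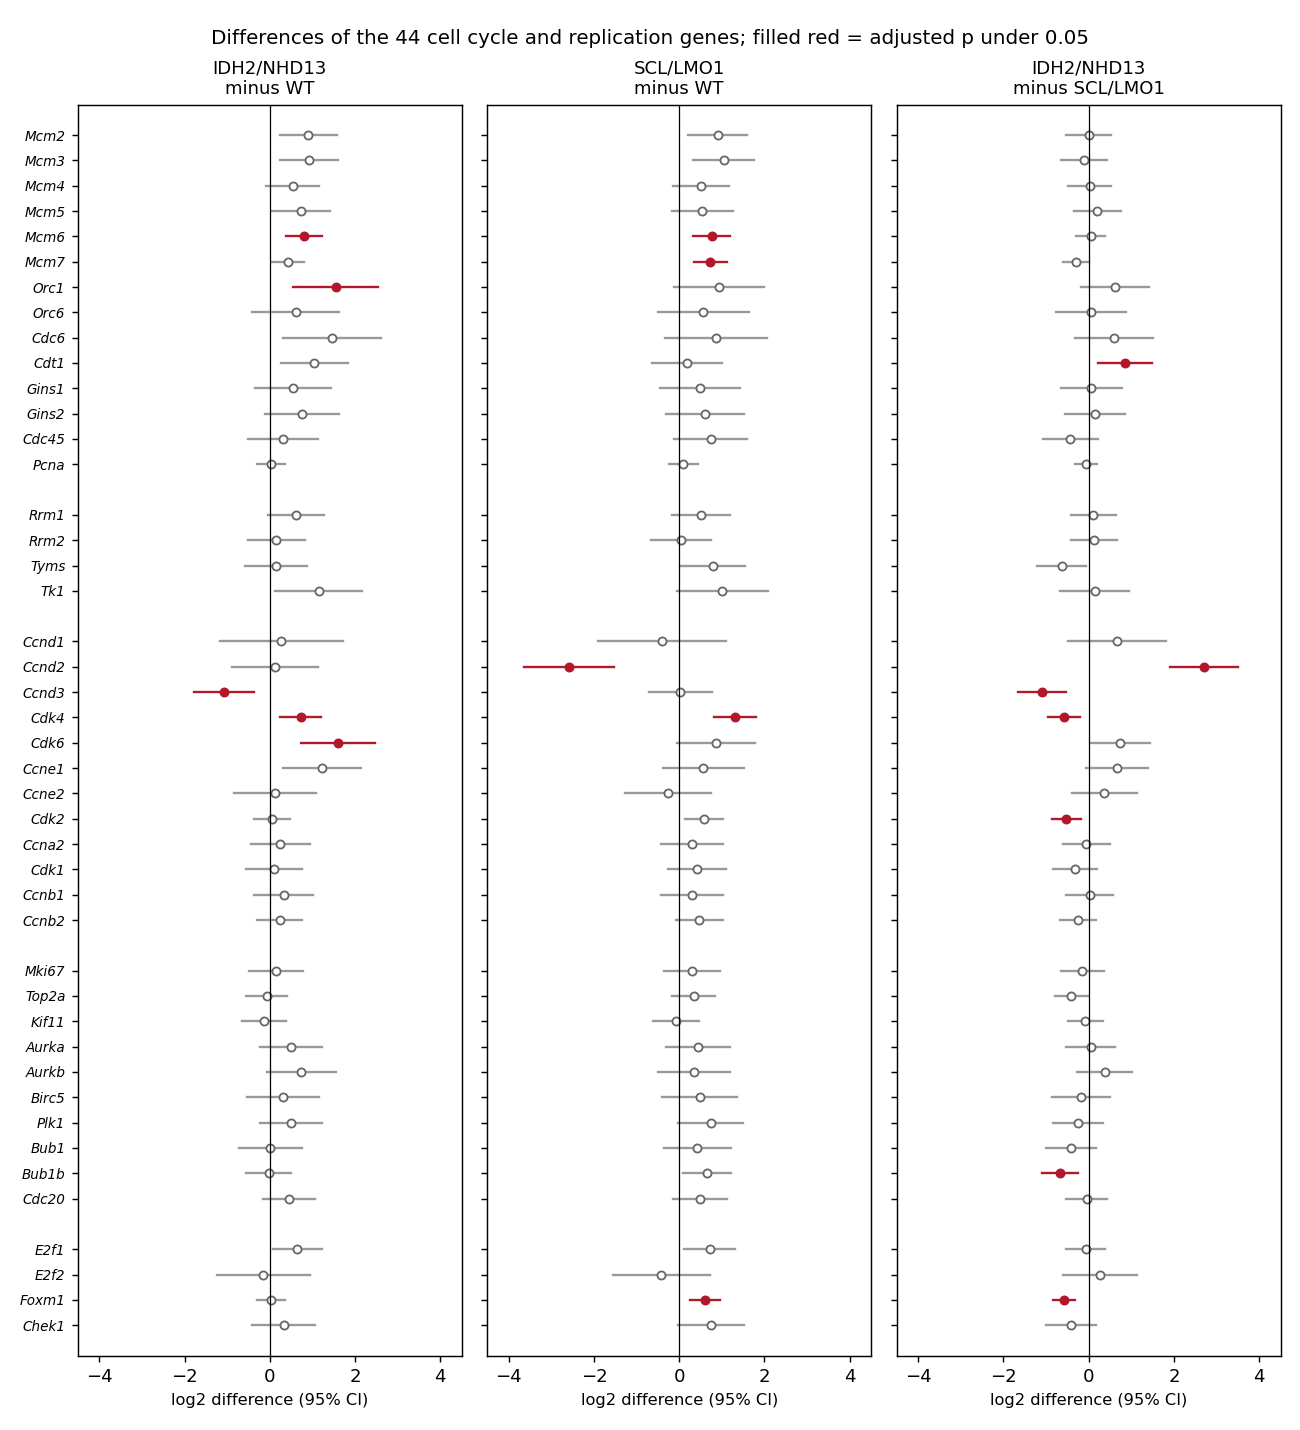
Log2 difference of each of the 44 genes (vertical axis, by role) for IDH2/NHD13 against WT, SCL/LMO1 against WT and IDH2/NHD13 against SCL/LMO1 (horizontal axis, log2 units), with 95% confidence intervals and called genes filled. Ccnd2 stands furthest from 0, at -2.58 for SCL/LMO1 against WT and 2.70 between the leukemias.

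The D-type cyclins start the G1 kinases, and Ccnd2 had the largest difference of the 44 genes in SCL/LMO1 against WT and between the leukemias. It was 5.97-fold lower in SCL/LMO1 thymi than in WT thymi and 6.51-fold higher in IDH2/NHD13 spleens than in SCL/LMO1 thymi. Its log2 signal ran from 9.90 through a median of 10.96 to 12.24 in IDH2/NHD13 spleens, from 7.52 through 8.33 to 9.69 in SCL/LMO1 thymi, and was 10.89, 11.40 and 10.53 in the 3 WT thymi. Every SCL/LMO1 thymus lay below every IDH2/NHD13 and WT sample. The log2 difference between SCL/LMO1 and WT was -2.58 (SE 0.50, limma adjusted p = 0.0039), and between IDH2/NHD13 and SCL/LMO1 it was 2.70 (SE 0.38, limma adjusted p = 0.000106). IDH2/NHD13 and WT differed by 0.13 (95% interval -0.88 to 1.14). The 4 other Ccnd2 probe sets above a log2 signal of 7 gave the same direction, -2.66 to -2.51 for SCL/LMO1 against WT. Both calls held with any 1 sample left out (limma adjusted p up to 0.0362 and 0.000409).

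Ccnd3, the D-type cyclin of the pre-T-cell receptor stage, was lower in IDH2/NHD13 spleens than in both other groups. It ran from 9.89 through 10.37 to 10.86 in IDH2/NHD13 spleens, from 10.17 through 11.67 to 11.94 in SCL/LMO1 thymi, and was 11.63, 10.91 and 11.78 in WT thymi. All IDH2/NHD13 spleens lay below all WT thymi. SCL/LMO1 mouse 6889/1 was the one SCL/LMO1 thymus among the IDH2/NHD13 values, with 10.17, and the other SCL/LMO1 thymi stood at 11.42 or above. The difference from WT was -1.08 (SE 0.33, limma adjusted p = 0.0371) and from SCL/LMO1 -1.10 (SE 0.27, limma adjusted p = 0.00684), while SCL/LMO1 and WT differed by 0.02 (interval -0.72 to 0.77). Without WT mouse 623 or 631, or IDH2/NHD13 mouse 525 or 559, the difference from WT lost its call (limma adjusted p = 0.158, 0.126, 0.0585 and 0.0599). Ccnd1, a D-type cyclin of many tissues, averaged 8.97 ± 1.29 in IDH2/NHD13, 8.30 ± 0.88 in SCL/LMO1 and 8.69 ± 0.36 in WT (SD), and did not pass the test. Its highest values were 11.12 in IDH2/NHD13 mouse 570 and 10.04 in SCL/LMO1 mouse 6889/1.

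**Figure D2:**
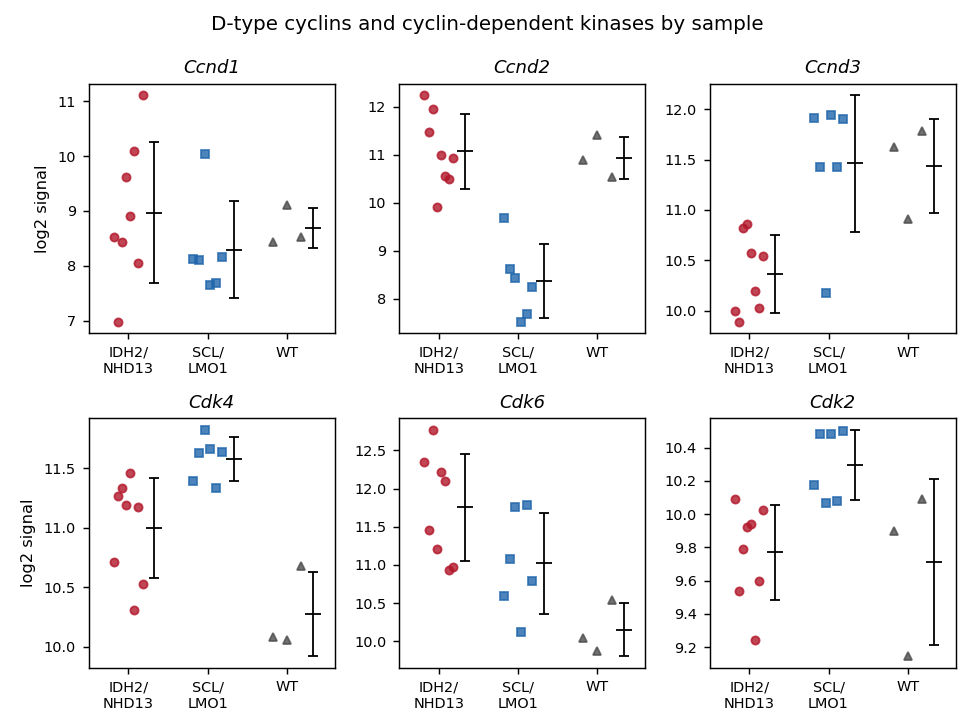
Log2 signal (vertical axis) of the D-type cyclins and their kinases by sample in IDH2/NHD13 spleens, SCL/LMO1 thymi and WT thymi (left to right), 1 point per sample with group mean and SD. Ccnd2 was low in all 6 SCL/LMO1 thymi, and Ccnd3 was low in all 8 IDH2/NHD13 spleens.

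Cdk4 and Cdk6 are the catalytic partners of the D-type cyclins. Cdk4 ran from 11.33 through 11.63 to 11.82 in SCL/LMO1 thymi and was 10.08, 10.06 and 10.68 in WT thymi, without overlap. The difference was 1.31 (SE 0.24, limma adjusted p = 0.00259), a 2.47-fold higher signal in SCL/LMO1. In IDH2/NHD13 spleens Cdk4 ran from 10.31 through 11.18 to 11.46, overlapping both other groups. It was 1.65-fold higher than in WT (log2 0.72, SE 0.23, limma adjusted p = 0.0373) and lower than in SCL/LMO1 (log2 -0.58, SE 0.18, limma adjusted p = 0.0279). The call against WT was lost without any of WT mice 623 and 627 and IDH2/NHD13 mice 525, 526, 531, 546 and 550 (averaged) and 559, at a limma adjusted p of 0.0549 to 0.176. Against SCL/LMO1 it was lost without IDH2/NHD13 mouse 570 or any of SCL/LMO1 mice 7114/3, 6889/1, 6466/4 and 7114/1, at 0.05 to 0.0626.

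Cdk6 was higher in IDH2/NHD13 spleens than in WT thymi. It ran from 10.93 through 11.78 to 12.77 in IDH2/NHD13 spleens, from 10.12 through 10.94 to 11.79 in SCL/LMO1 thymi, and was 10.05, 9.87 and 10.54 in WT thymi. All IDH2/NHD13 spleens lay above all WT thymi and overlapped SCL/LMO1. The difference from WT was 1.60 (SE 0.41, limma adjusted p = 0.0157), 3.03-fold, and it was lost without WT mouse 623 or 627 (limma adjusted p = 0.0779 and 0.0766). Among the other cyclins and CDKs, Ccne1, a cyclin of the G1 to S transition, averaged 9.89 ± 0.84 in IDH2/NHD13, 9.24 ± 0.34 in SCL/LMO1 and 8.67 ± 0.58 in WT, a difference of 1.22 for IDH2/NHD13 against WT (limma adjusted p = 0.0604). Cdk2, its partner, ran from 9.25 through 9.86 to 10.09 in IDH2/NHD13 spleens and from 10.07 through 10.33 to 10.50 in SCL/LMO1 thymi, with a narrow overlap. The WT thymi stood at 9.90, 9.14 and 10.09. The WT mean was 9.71, beside 9.77 in IDH2/NHD13 and 10.30 in SCL/LMO1. Cdk2 was 1.44-fold lower in IDH2/NHD13 than in SCL/LMO1 (-0.53, SE 0.16, limma adjusted p = 0.0253). The call was lost without any of SCL/LMO1 mice 7114/3, 6466/4 and 7114/1 (limma adjusted p = 0.0584 to 0.0595). The one other Cdk2 probe set had a mean log2 signal of 2.93, too dim to check it. In this group 2 of 12 genes were higher and 1 lower in IDH2/NHD13 than in WT, 1 higher and 1 lower in SCL/LMO1 than in WT, and 1 higher and 3 lower in IDH2/NHD13 than in SCL/LMO1. These were 16.7% and 8.33% (all genes 9.08% and 8.31%), 8.33% and 8.33% (all genes 5.04% and 6.52%), and 8.33% and 25% (all genes 11.7% and 12%). The rest (Ccne2, Ccna2, Cdk1, Ccnb1 and Ccnb2) were not called in any comparison, with differences between -0.32 and 0.47.

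Replication genes stood above WT in both leukemias, with most short of the threshold. All 18 of 18 licensing, origin firing and nucleotide genes had positive differences against WT in IDH2/NHD13 and in SCL/LMO1, as did 62.1% and 61.5% of all genes. The medians of the 18 were 0.68 and 0.67, against 0.10 and 0.08 over all genes. The mean of the 18 genes in WT mouse 631, 10.94, lay within the range of both leukemias. In each comparison 2 of the 18 were called higher (11.1%, against 9.08% and 5.04% of all genes). Mcm6, a subunit of the MCM helicase, ran from 12.03 through 12.51 to 13.00 in IDH2/NHD13 spleens, from 12.13 through 12.46 to 12.65 in SCL/LMO1 thymi, and was 11.47, 11.39 and 12.17 in WT thymi. WT mouse 631 overlapped both leukemias and the other WT thymi did not. The log2 difference from WT was 0.81 in IDH2/NHD13 (SE 0.20, limma adjusted p = 0.0118) and 0.76 in SCL/LMO1 (SE 0.21, limma adjusted p = 0.0268). Without WT mouse 623 or 627 both calls were lost (limma adjusted p = 0.0835 and 0.0791 for IDH2/NHD13, 0.129 and 0.182 for SCL/LMO1). The SCL/LMO1 call was lost too without mouse 7114/3 or 6466/4 (0.0529 and 0.0517).

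Mcm7, another subunit, ran from 13.28 through 13.47 to 13.61 in SCL/LMO1 thymi and was 12.62, 12.41 and 13.16 in WT thymi, without overlap. It was 1.65-fold higher in SCL/LMO1 (0.73, SE 0.18, limma adjusted p = 0.0184), and without WT mouse 623 or 627 the adjusted p was 0.0851 and 0.151. In IDH2/NHD13 spleens, which ran from 12.64 to 13.38, it was not called. Orc1, the large subunit of the origin recognition complex, ran from 7.09 through 8.67 to 9.75 in IDH2/NHD13 spleens and was 6.83, 6.66 and 7.71 in WT thymi. In SCL/LMO1 thymi it ran from 7.53 through 7.89 to 8.68. Most IDH2/NHD13 spleens lay above the WT range, with mice 524 and 555 (7.09 and 7.69) inside it. It was 2.91-fold higher than in WT (1.54, SE 0.47, limma adjusted p = 0.0345), a call lost without WT mouse 623 or 627 or IDH2/NHD13 mouse 525, 531 or 559 (0.0518 to 0.148). The second brightest Orc1 probe set gave 0.68 (limma adjusted p = 0.13).

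Cdt1, which loads MCM onto origins, ran from 11.13 through 12.55 to 13.30 in IDH2/NHD13 spleens and from 11.34 through 11.64 to 11.76 in SCL/LMO1 thymi. The WT thymi averaged 11.44 ± 0.61 (SD), with a median of 11.19 and a highest value of 12.13. IDH2/NHD13 mouse 524 lay below every SCL/LMO1 thymus, and the other IDH2/NHD13 spleens lay above all of them. It was 1.81-fold higher in IDH2/NHD13 (0.86, SE 0.30, limma adjusted p = 0.0457), and the call was lost when any 1 of the 17 samples was left out other than WT mice 623 and 631 and IDH2/NHD13 mice 524 and 555 (0.0522 to 0.093). Against WT, Cdt1 differed by 1.05 in IDH2/NHD13 and by 0.19 in SCL/LMO1, neither called. With the second brightest Cdt1 probe set the IDH2/NHD13 difference was called (1.47, limma adjusted p = 0.0389). It was also called with the mean of all probe sets (0.87, limma adjusted p = 0.0452). Cdc6, the partner of Cdt1 in loading, averaged 10.88 ± 1.10 in IDH2/NHD13, 10.28 ± 0.37 in SCL/LMO1 and 9.42 ± 0.66 in WT. Its difference from WT was 1.46 in IDH2/NHD13 (limma adjusted p = 0.073) and 0.86 in SCL/LMO1, neither called. Mcm3 averaged 11.46 ± 0.52 in IDH2/NHD13, 11.58 ± 0.29 in SCL/LMO1 and 10.53 ± 0.76 in WT. Its difference from WT was 0.93 in IDH2/NHD13 and 1.04 in SCL/LMO1 (limma adjusted p = 0.0549 for SCL/LMO1), neither called. Both were called with dim genes left out (limma adjusted p = 0.0491 and 0.0464). Tk1, which makes thymidine monophosphate, averaged 10.26 ± 0.92, 10.12 ± 0.50 and 9.10 ± 0.60 in IDH2/NHD13, SCL/LMO1 and WT (limma adjusted p = 0.105 and 0.207 against WT). Rrm1, the large subunit of ribonucleotide reductase, averaged 12.04 ± 0.59, 11.93 ± 0.25 and 11.42 ± 0.48, and was not called. Tyms, thymidylate synthase, ran from 7.18 to 7.89 in SCL/LMO1 and was 6.84, 6.50 and 6.68 in WT, without overlap but with a limma adjusted p of 0.168. Pcna, the sliding clamp, averaged 13.64 ± 0.24, 13.70 ± 0.15 and 13.61 ± 0.33.

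The other replication genes were not called in any comparison. Mcm2, also of the MCM helicase, averaged 11.72 ± 0.55 in IDH2/NHD13, 11.73 ± 0.20 in SCL/LMO1 and 10.82 ± 0.72 in WT (limma adjusted p = 0.0591 and 0.0872 against WT). Mcm4 averaged 12.15 ± 0.57, 12.12 ± 0.22 and 11.62 ± 0.48, and Mcm5 12.44 ± 0.62, 12.24 ± 0.16 and 11.71 ± 0.58, in the same order of groups. WT mouse 631 was the highest WT thymus for all 6 Mcm genes and lay within the range of IDH2/NHD13 for each of them. Cdc45, which joins MCM and GINS in the active helicase, averaged 8.89 ± 0.74, 9.32 ± 0.41 and 8.58 ± 0.47. The GINS subunits Gins1 and Gins2 differed from WT by 0.55 and 0.76 in IDH2/NHD13 and by 0.49 and 0.61 in SCL/LMO1. Orc6, the small subunit of the origin recognition complex, differed by 0.61 and 0.56 and Rrm2, the small subunit of ribonucleotide reductase, by 0.15 and 0.03. For Rrm2 the 95% interval was -0.52 to 0.82 in IDH2/NHD13 and -0.67 to 0.73 in SCL/LMO1.

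**Figure D3:**
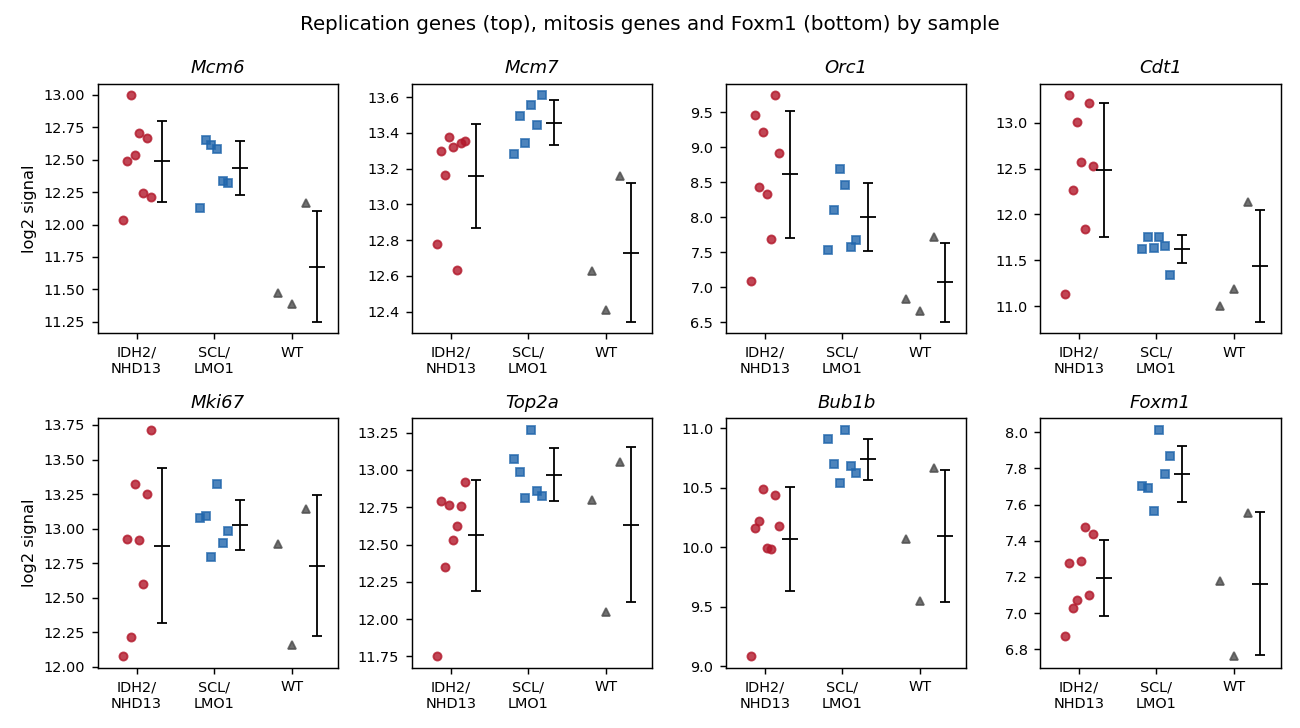
Log2 signal (vertical axis) of replication genes (top) and of mitosis genes and Foxm1 (bottom) by sample in IDH2/NHD13 spleens, SCL/LMO1 thymi and WT thymi (left to right), 1 point per sample with group mean and SD. Mcm6 lay above 2 of the 3 WT thymi in every leukemia sample, while Mki67 and Top2a overlapped across all 3 groups.

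Of the 10 mitosis and proliferation genes none was called against WT in either leukemia, at a nominal p under 0.05 in 0 genes for IDH2/NHD13 and 1 for SCL/LMO1. Their median difference was 0.22 for IDH2/NHD13, positive in 7 of 10, and 0.44 for SCL/LMO1, positive in 9 of 10. Over all genes the medians were 0.10 and 0.08, with 62.1% and 61.5% positive. Mki67, the proliferation marker, averaged 12.88 ± 0.56 in IDH2/NHD13, 13.03 ± 0.18 in SCL/LMO1 and 12.73 ± 0.51 in WT. Top2a, the topoisomerase of dividing chromosomes, averaged 12.56 ± 0.37, 12.97 ± 0.18 and 12.63 ± 0.52 in the same order. The 3 groups overlapped for both genes. Bub1b, a spindle checkpoint kinase, ran from 9.08 through 10.17 to 10.48 in IDH2/NHD13 spleens and from 10.54 through 10.69 to 10.99 in SCL/LMO1 thymi, without overlap. The WT thymi stood at 10.07, 9.55 and 10.66. The WT mean was 10.09, beside 10.07 in IDH2/NHD13 and 10.74 in SCL/LMO1. Bub1b was 1.59-fold lower in IDH2/NHD13 than in SCL/LMO1 (-0.67, SE 0.20, limma adjusted p = 0.0234). The call was lost without SCL/LMO1 mouse 6466/4 (limma adjusted p = 0.0559) and with the second brightest Bub1b probe set (-0.37, limma adjusted p = 0.226). Bub1, a related checkpoint kinase, differed by -0.41 between the leukemias (limma adjusted p = 0.317). With its second brightest probe set, at a mean log2 signal of 6.80, Bub1 was higher by 1.18 in SCL/LMO1 than in WT (limma adjusted p = 0.0267). Aurkb, a kinase of chromosome segregation, differed by 0.73 from WT in IDH2/NHD13 (limma adjusted p = 0.187). Plk1, a kinase of mitotic entry, differed by 0.74 from WT in SCL/LMO1 (limma adjusted p = 0.196).

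The remaining mitosis genes, Cdk1 and the cyclins of S phase and mitosis did not pass the test in any comparison. Kif11, a spindle motor, averaged 9.82 ± 0.38 in IDH2/NHD13, 9.90 ± 0.20 in SCL/LMO1 and 9.96 ± 0.60 in WT. Aurka, a centrosome kinase, averaged 9.82 ± 0.63, 9.77 ± 0.25 and 9.33 ± 0.61, and Birc5, survivin, 11.48 ± 0.80, 11.66 ± 0.23 and 11.18 ± 0.55. The groups overlapped for all 3 genes. Cdc20, an activator of the anaphase-promoting complex, averaged 12.14 ± 0.48, 12.19 ± 0.26 and 11.69 ± 0.64. Cdk1, the mitotic kinase, averaged 10.88 ± 0.55, 11.20 ± 0.30 and 10.78 ± 0.56. Its partners Ccna2, Ccnb1 and Ccnb2 differed from WT by 0.25, 0.33 and 0.23 in IDH2/NHD13 and by 0.30, 0.30 and 0.47 in SCL/LMO1. The Kif11 probe sets disagreed. From brightest to dimmest they gave -0.14, 0.27 and -1.25 for IDH2/NHD13 against WT, and -0.08, -0.36 and -1.65 between the leukemias. With the mean of all its probe sets Kif11 was called lower in IDH2/NHD13 than in SCL/LMO1 (-0.70, limma adjusted p = 0.0413).

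Among the transcription factors, Foxm1, which drives mitotic genes, was lower in IDH2/NHD13 spleens than in SCL/LMO1 thymi. It ran from 6.87 through 7.19 to 7.48 in IDH2/NHD13 spleens, from 7.57 through 7.74 to 8.01 in SCL/LMO1 thymi, and was 7.18, 6.76 and 7.55 in WT thymi. SCL/LMO1 overlapped neither other group. The difference between the leukemias was -0.57 (SE 0.12, limma adjusted p = 0.00322) and that of SCL/LMO1 from WT 0.61 (SE 0.16, limma adjusted p = 0.0255), the second lost without WT mouse 623 or 627 or SCL/LMO1 mouse 6466/4 (0.0806, 0.21 and 0.0515). With the second brightest probe set the difference of SCL/LMO1 from WT was 0.69 (limma adjusted p = 0.15). E2f1 averaged 7.98 ± 0.49 in IDH2/NHD13, 8.05 ± 0.29 in SCL/LMO1 and 7.34 ± 0.42 in WT (limma adjusted p = 0.107 and 0.117 against WT), and the checkpoint kinase Chek1 9.81 ± 0.66, 10.23 ± 0.34 and 9.49 ± 0.48 (0.524 and 0.199). With the second brightest E2f1 probe set the difference of SCL/LMO1 from WT was 1.02 (limma adjusted p = 0.0358). E2f2 was not called.

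Few of the 44 genes separated the groups without overlap. Of the 44, 1 lay higher and 1 lower in IDH2/NHD13 than in WT (all genes 6.99% and 5.15%, 12.1% in all). In SCL/LMO1 against WT it was 4 higher and 1 lower (all genes 11.3% and 9.56%, 20.9% in all). Between the leukemias it was 1 higher and 2 lower in IDH2/NHD13 (all genes 4.74% and 3.95%, 8.69% in all). Each total is below the share of all genes. The mean of the 18 replication genes minus the mean of the 10 mitosis genes was taken as a description with no test. It was 0.16 ± 0.25 in IDH2/NHD13 (-0.38 to 0.41), -0.10 ± 0.24 in SCL/LMO1 (-0.54 to 0.19) and -0.31 ± 0.12 in WT (-0.41 to -0.18). The 2 means come from different probe sets, so the sign has no meaning by itself and only samples and groups can be compared.

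**Figure D4:**
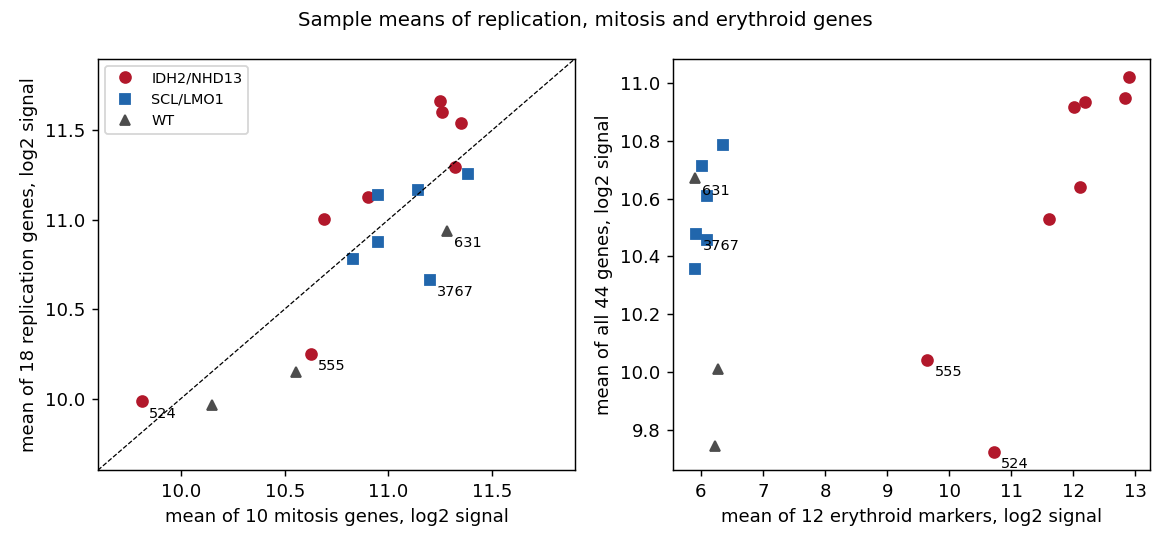
Each point is a sample of the IDH2/NHD13, SCL/LMO1 or WT group, in log2 signal. Left, the mean of the 18 replication genes (vertical) against the mean of the 10 mitosis genes (horizontal), with a dashed line of equality, and right, the mean of all 44 genes (vertical) against the mean of 12 erythroid markers (horizontal). The mean of all 44 genes lay between 9.73 and 11.02 in IDH2/NHD13 spleens, between 10.36 and 10.79 in SCL/LMO1 thymi, and between 9.74 and 10.67 in WT thymi.

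The genes varied more between IDH2/NHD13 spleens than between SCL/LMO1 thymi. The median SD over the 44 genes was 0.612 in IDH2/NHD13, 0.258 in SCL/LMO1 and 0.556 in WT, against 0.298, 0.192 and 0.214 over all genes. For 43 of 44 genes (97.7%) the SD was higher in IDH2/NHD13 than in SCL/LMO1, as for 75.5% of all genes. IDH2/NHD13 mouse 524 had the lowest value of its group for 31 of 44 genes (70.5%, against 14.6% of all genes) and mouse 555 for 8 (18.2%, against 26.1% of all genes). Their means over the 44 genes were 9.73 and 10.04, against 10.53 to 11.02 in the other IDH2/NHD13 spleens. Their erythroid means, 10.72 and 9.65, were also the lowest of the group, and the others lay between 11.60 and 12.89. Their T-lineage means were 10.12 and 10.02, among the higher ones of a group that ranged from 6.83 to 10.12. With the erythroid mean as a covariate none of the 5 calls against WT and none of the 7 between the leukemias was kept, and Orc1, Cdk4 and Cdt1 turned direction. That mean does not overlap between spleens and thymi, so it cannot be told apart from the groups. Without mouse 524, 12 of 44 genes (27.3%) were called against WT, and without mouse 555, 14 (31.8%), against 5 (11.4%) with all samples. The share of all genes called moved too, to 21% and 25.6%, against 17.4%. Without mouse 525, 531 or 559, 2, 3 and 2 of the 44 were called (all genes 15.2%, 14.6% and 14.4%). In SCL/LMO1 against WT, 9 (20.5%, all genes 12.2%) were called without IDH2/NHD13 mouse 524, which enters that fit through the shared spread, against 5.

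WT thymi varied likewise: mouse 631 was the highest of the 3 for 41 of 44 genes (93.2%, against 45.2% of all genes) and mouse 627 the lowest for 34 (77.3%, against 36.6%). The means over the 44 genes were 10.01 in mouse 623, 9.74 in mouse 627 and 10.67 in mouse 631. Without mouse 623 no gene of the 44 was called between IDH2/NHD13 and WT, without 627 1, and without 631 9 (all genes 6.69%, 9.57% and 16.1%). Between SCL/LMO1 and WT, 2, 2 and 10 were called without mouse 623, 627 or 631 (all genes 5.8%, 3.7% and 13.6%), against 5 with all samples. Ccnd2 and Cdk4 kept their call in SCL/LMO1 against WT without any 1 of the WT thymi. In SCL/LMO1 mouse 6466/4 was the highest for 26 of 44 genes (59.1%, against 14.2% of all genes). Without it 3 genes were called between the leukemias, against 7, and 3 in SCL/LMO1 against WT, against 5 (all genes 19.7% and 8.66%). Without mouse 7114/3 or 7114/1, 4 were called between the leukemias (all genes 20.3% and 20.1%).

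Other genes of the pathway, taken from lists that were chosen with earlier results of these data known, were examined for the same comparisons. Of 37 further replication genes, 7 were higher and 0 lower in IDH2/NHD13 than in WT, 5 and 0 in SCL/LMO1 than in WT, and 1 higher and 5 lower in IDH2/NHD13 than in SCL/LMO1. The shares higher than WT were 18.9% and 13.5%, against 9.08% and 5.04% of all genes, and between the leukemias 2.7% were higher and 13.5% lower, against 11.7% and 12% of all genes. Prim2, a primase subunit, was higher by 1.40 in IDH2/NHD13 and by 1.17 in SCL/LMO1 (limma adjusted p = 0.00286 and 0.0151). Pole, the leading strand polymerase, was higher by 1.27 and 1.42 (limma adjusted p = 0.00966 and 0.00877). Of 38 further mitosis genes, 0 were called against WT in either leukemia (limma; 4 and 9 at a nominal p under 0.05), and 1 was higher and 5 lower in IDH2/NHD13 than in SCL/LMO1 (2.63% and 13.2%, against 11.7% and 12% of all genes). Cenpf, a kinetochore protein, differed by -0.93 (limma adjusted p = 0.0114), and Ube2c, a partner of the anaphase-promoting complex, by 1.06 (0.0138).

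The CDK inhibitors differed in direction. Of 30 genes of the retinoblastoma, E2F and inhibitor list, 7 were higher and 2 lower in IDH2/NHD13 than in WT, 2 and 1 in SCL/LMO1, and 5 and 1 between the leukemias. These were 23.3% and 6.67% (all genes 9.08% and 8.31%), 6.67% and 3.33% (all genes 5.04% and 6.52%), and 16.7% and 3.33% (all genes 11.7% and 12%). Cdkn1a, which encodes p21, averaged 10.28 ± 0.96 in IDH2/NHD13, 7.39 ± 0.45 in SCL/LMO1 and 8.53 ± 0.27 in WT. It was 7.45-fold higher in IDH2/NHD13 than in SCL/LMO1 (2.90, limma adjusted p = 5.11e-05) and 3.37-fold higher than in WT (limma adjusted p = 0.019). Cdkn2a, the locus of p16Ink4a and p19Arf, averaged 8.54 ± 1.82 in IDH2/NHD13, 5.07 ± 0.97 in SCL/LMO1 and 4.40 ± 0.51 in WT, and differed from WT by 4.14 (limma adjusted p = 0.00632). The WT values were low and cannot be separated from background. Cdkn2c, p18Ink4c, averaged 10.62 ± 0.45, 10.80 ± 0.44 and 11.91 ± 0.36 and was lower in both leukemias than in WT (-1.29 and -1.12, limma adjusted p = 0.00605 and 0.0229).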

How the data were processed

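RNA of 18 mice was hybridized to Affymetrix mouse expression arrays, per the labels, 1 array per mouse. The deposited values are log2 signals, and for the authors' probe summary and normalization the method was not given in the sources used here. No scaling was added (array medians 5.891 to 6.01). Another table's 36 per-array columns, named by array number alone, match no sample label and stayed unused. Probe sets with 1 gene symbol (38089 of 45101) were kept. Symbols were updated to RefSeq by Entrez gene ID for the 35121 probe sets that matched. Each of 20672 genes was taken from its brightest probe set across arrays. Low values cannot be separated from background, so a fold against a dim group is understated. The arrays of mice 546 and 550 were averaged, giving 17 samples.

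Tests used limma 3.58.1 in R 4.3.3, with 1 coefficient per group, 3 contrasts, eBayes and p-values adjusted over all genes by Benjamini-Hochberg. A gene was called where its adjusted p was under 0.05. Intervals are 95%. The scripts were tested on simulated data. The genes, lists and settings were chosen with earlier results of these data known. Full values were given for called genes and, in each role group, the 2 with the largest difference in a comparison, and from each pathway list up to 4 genes with the smallest adjusted p. Promoters came from the RefSeq table for GRCm38.p6 and were searched for fixed letters on both strands. Alternatives were quantile normalization, centred array medians, leaving out dim genes (13813 genes stayed, those past the 40th percentile on 3 or more arrays), other probe sets, a variance trend, array weights, 2-group fits, all 18 arrays, mice 7114/1 and 7114/3 averaged, an adjusted p under 0.01, an erythroid covariate, leaving out mice 555, 627 and 6889/1, and each sample in turn.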

Additional observations from a re-analysis of the deposited data

Results flagged for a closer look

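In groups of 4 to 10 samples, a gene is given here when its highest or lowest sample stood far from the nearest of the others relative to the range of the group (Dixon's test at its 95% critical value). Chance gives this in about 1 of 20 groups, and 7 of 88 gene and group combinations had it. In SCL/LMO1 thymi, mouse 7114/1 was lowest for Cdt1 at 11.34, with the next thymus at 11.62. SCL/LMO1 mouse 6889/1 was highest for Ccnd1 at 10.04 (next 8.15) and lowest for Ccnd3 at 10.17 (next 11.42). IDH2/NHD13 mouse 524 was lowest for 4 mitosis genes: Kif11 at 8.96 (next 9.63), Bub1 at 9.28 (next 10.27), Bub1b at 9.08 (next 9.98) and Cdc20 at 11.11. Its mean over the 10 mitosis genes, 9.81, was likewise the lowest, with the next IDH2/NHD13 spleen at 10.63.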

How the results depend on the processing

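Ccnd2 and Cdk4 in SCL/LMO1 against WT kept their call in all 30 alternatives. Ccnd2, Ccnd3 and Foxm1 in IDH2/NHD13 against SCL/LMO1 lost it only with the erythroid covariate. The number of genes called in IDH2/NHD13 against WT, 5 with all samples, was 19 with array weights (all genes 33.4%, against 17.4%), 3 in a fit of these groups alone (9.62%), 9 with all 18 arrays (20.2%), 0 at an adjusted p under 0.01 (6.78%), 1 with the erythroid covariate (3%) and 1 without mice 555, 627 and 6889/1 (14.5%). Leaving out each sample gave 0 to 14 (6.69% to 25.6%). In SCL/LMO1 against WT, 5 became 15 with array weights (all genes 23.4%, against 11.6%), 8 in a fit of these groups alone (17.2%), 2 at an adjusted p under 0.01 (4.3%), 9 with the covariate (14.8%) and 2 without those 3 mice (5.13%), and 2 to 10 with each sample left out (3.7% to 14.5%). In IDH2/NHD13 against SCL/LMO1, 7 became 4 with mice 7114/1 and 7114/3 averaged (all genes 20.3%, against 23.7%), 3 at an adjusted p under 0.01 (13.4%) and 13 with the covariate (6.33%), and 3 to 8 with each sample left out (19.7% to 25.9%). The 1 gene called in IDH2/NHD13 against WT with the covariate was Tyms (-2.73), which was not among the 5. The 13 called between the leukemias were all lower in IDH2/NHD13 (-4.17 to -1.65) and included none of the 7. Under the covariate, Orc1 (-1.89) and Cdk4 (-0.36) in IDH2/NHD13 against WT and Cdt1 in IDH2/NHD13 against SCL/LMO1 (-1.64) turned direction. The erythroid mean differs between spleens and thymi without overlap, so this fit extrapolates. For the other changes the cause was not tested. The number of arrays, 3 for WT, limits precision. No paired analysis was possible because the mice of the groups share no replicate numbers.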
